A study of Arabidopsis thaliana with 10 samples.

Results

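The transcript levels of rosettes homozygous for a CesA4 mutation were compared directly with those of rosettes homozygous for a CesA6 mutation. The comparison took the 3 arrays labelled homozygous AtCesA4 and the 2 labelled homozygous AtCesA6 out of 10 in the series, and every probe set of the array that is not a manufacturer's control, 22746 in all. All plants were Arabidopsis thaliana of the ecotype Col-0, 4 weeks old and untreated, grown at 50% humidity and 22 °C, and RNA was hybridised to Affymetrix ATH1 arrays. The CesA4 plants carried the allele that the labels name irx5-2, in a homozygous group of 3 arrays and a heterozygous group of 3. The other line is called both AtCesA6 and irx6-1 by the labels, in a homozygous group of 2 arrays and a heterozygous group of 2. The reference annotation lists IRX6 as a name of COBL4 (AT5G15630), a gene other than CESA6 (AT5G64740), so the line is named here by its label and the mutated gene could not be settled. None of CESA4, CESA6 and COBL4 had a named probe set, and the genotypes were therefore not checked against the transcripts. The heterozygous arrays shared the estimate of the spread with the homozygous ones, and formed a second pair of groups in which the lines could be set side by side. Wild-type plants were not analysed here.

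Cellulose is made at the plasma membrane by complexes of several cellulose synthase subunits. CESA4 belongs to the complex that builds the thick secondary walls of xylem and fibres, and CESA6 to the complex that builds the primary walls of expanding cells. Mutants of secondary wall subunits are known for collapsed xylem vessels, and mutants of primary wall subunits for reduced cell elongation. Both kinds have been linked in earlier work to changes in hormone and stress responses, among them those to jasmonate, ethylene and abscisic acid.

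The values are MAS5 signals, which were scaled per array to a common trimmed mean of 100.01 and are without a physical unit. The correlation of log2 signals between arrays was 0.927 to 0.941 within the homozygous CesA4 group and 0.936 between the pair of homozygous CesA6 arrays. Between these groups it was 0.917 to 0.947, and these ranges overlapped. Nothing in the labels tells if replicate arrays came from different plants or from pools, so n counts arrays. The p-values rest on the spread between arrays within all 4 groups, drawn towards that of other probe sets, and this spread may be technical. Of 12 listed rosette leaf markers 1 was measured, so the label of the tissue was checked with a single leaf gene: RCA, the activase of Rubisco, lay at 10019.8 to 11975 in the homozygous CesA4 arrays and at 11012 to 11362 in the homozygous CesA6 arrays. Of 17 listed flower markers 3 were measured, with a summed signal of 9.90 to 39.5 in homozygous CesA4 and of 49.8 to 59.2 in homozygous CesA6. The flower sums were also higher in the CesA6 line in heterozygous plants, at 14.5 to 25.4 in CesA4 and 36.8 to 54.1 in CesA6. Of 18 listed root markers 7 were measured, at summed signals of 410 to 608 in homozygous CesA4 and 524 to 595 in homozygous CesA6. In heterozygous plants the root markers summed to 178 to 438 in CesA4 and to 184 to 239 in CesA6, so that both homozygous CesA6 arrays stood above both heterozygous CesA6 arrays, and their part in the comparisons of genotypes was not tested. In homozygous CesA4 and homozygous CesA6, seed markers (3 of 14 measured) reached 17.2 to 44.7 and 9.35 to 37.7, and pollen markers (3 of 10) 2.68 to 29.2 and 9.48 to 19.7. In whole rosettes, a lower signal can come from fewer cells of a type or from less RNA per cell, and these cannot be told apart. Any difference in growth or handling between the lines likewise cannot be told apart from the genotype.

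Few probe sets were called between the homozygous lines, which does not show that few differed. A probe set was called when the Benjamini-Hochberg adjusted p of limma's test, over all 22746 probe sets, was under 0.05. Of these, 204 (0.897%) were called, 100 higher in CesA4 (0.44%) and 104 lower (0.457%). The difference was at least 2-fold for 157 of them, 72 higher and 85 lower. All 204 had groups that did not overlap, as did 23.3% of all probe sets. The median difference over all probe sets was 0.01 on the log2 scale. Among the called probe sets 84 had 1 gene in the annotation, 44 higher and 40 lower in CesA4 (0.33% and 0.3% of 13350 genes), and the other 120 (56 higher and 64 lower) had none or several, among them the one with the lowest difference, -3.90.

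The number called depended on the test and on single arrays. The fit let the expected variance depend on signal and allowed for probe sets of unusual variance. With 1 common expected variance instead, 8 probe sets were called, 6 of them shared with the 204, while 1854 had an unadjusted p under 0.05, against 2007 (8.82%) before. Only AT1G71000, AT3G62950, AT5G61590 and AT2G33850 of the 84 genes were still called then, so every other call named here was lost under that setting. Without homozygous CesA6 replicate 1 the count was 135, 98 higher and 37 lower, and without homozygous CesA6 replicate 2 it was 114, 51 higher and 63 lower. Of the 84 genes 50 lost their call without the former array and 45 without the latter. With the 5 homozygous arrays fitted alone, 153 probe sets were called, 139 of them shared with the 204, and 27 of the 84 genes lost their call.

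Among the genes higher in CesA4 and measured well above the pseudocount in both groups, a transcription factor had the largest difference. AT5G61590, an ethylene response factor known as a repressor of wax synthesis genes, had signals of 267, 268 and 407 in the homozygous CesA4 arrays and of 52.3 and 34.2 in the homozygous CesA6 arrays. Every CesA4 array stood above both CesA6 arrays, with a ratio of mean signals of 7.26. The log2 difference was 2.77 ± 0.20 (SE, n = 3 and 2 arrays, adjusted p = 6.2e-10 by limma), and over all alternatives it ran from 2.49 to 3.06. ORA47, an AP2/ERF factor that activates jasmonate synthesis genes, had signals of 94.8, 96.1 and 140 against 48.5 and 31.4. Its groups did not overlap, and its log2 difference was 1.40 ± 0.27 (adjusted p = 0.00339). Without homozygous CesA6 replicate 2 the difference of ORA47 was 1.11 and the adjusted p 0.187. Over all 13350 genes 0.33% were called higher. ORA47 was the only call among 6 measured genes of the AP2/ERF list. Of these 5 were below 0, the median was -0.65, and by limma 3 had an unadjusted p under 0.05. AT5G61590 was counted in the cuticle and wax list, as the only call of 3 measured genes, with 2 below 0 and a median of -0.56. Among regulators of another kind, AT1G23390, an F-box protein with kelch repeats, was at 285, 192 and 332 in CesA4 and at 129 and 95.3 in CesA6. The log2 difference was 1.22 ± 0.22 (adjusted p = 0.0015), or 1.01 with an adjusted p of 0.125 without homozygous CesA6 replicate 2.

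AT3G10020, a gene known to be induced by low oxygen in many cell types, was also higher in CesA4. Its signals were 385, 268 and 359 in CesA4 and 75.1 and 72.6 in CesA6, a ratio of means of 4.57. The lowest CesA4 array exceeded the highest CesA6 array by far more than the gap between the CesA6 arrays, and the log2 difference was 2.13 ± 0.20 (adjusted p = 9.08e-08). The other 4 measured genes of the hypoxia and fermentation list were not called, with log2 differences from 0.04 to 0.49. AT2G20670, of the DUF506 family of unknown function, was at 223, 249 and 245 in CesA4 and at 58.6 and 39.5 in CesA6. These groups were also well separated, and the log2 difference was 2.24 ± 0.21 (adjusted p = 9.61e-08). A second member of the family, AT3G07350, rose by 1.19 ± 0.23 (adjusted p = 0.00303), from 155 and 139 in CesA6 to 338, 319 and 363 in CesA4. The call of AT3G07350 was lost without homozygous CesA6 replicate 2 (adjusted p = 0.0997). These were 2 of the 5 measured genes of this family, which was listed after the values were seen, and the other 3 lay between -0.37 and 0.32. Over all 13350 genes 0.33% were called higher.

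The 2 largest differences of named genes came from probe sets that were near the floor in CesA6. AT1G71000, a protein with a DnaJ domain as found in cochaperones of Hsp70, had signals of 51.7, 64.3 and 64.9 in CesA4 and of 1.26 and 0.762 in CesA6. AT3G62950, of the glutaredoxin family, had 36.6, 48.3 and 48.7 against 1.68 and 0.911. Both CesA6 arrays lay below the pseudocount of 3.2 for both genes, which shrinks the difference and makes it depend on that choice. The log2 differences were 3.91 ± 0.61 (adjusted p = 0.000325) for AT1G71000 and 3.40 ± 0.45 (adjusted p = 2.85e-05) for AT3G62950, and with other settings they ran from 2.67 to 5.93 and from 2.26 to 5.16. Both stayed called in the 18 alternatives that tested them, and both were left out by the strictest filter on dim probe sets. AT2G19970, a protein of the family of pathogenesis-related protein 1, was at 53.8, 95 and 6.21 in CesA4 and at 0.825 and 2.1 in CesA6. Its homozygous CesA4 replicate 3 lay close to the CesA6 arrays, and the log2 difference of 3.02 ± 0.70 (adjusted p = 0.0476) lost its call when any of 7 arrays was left out, with adjusted p-values from 0.0599 to 0.583. The list of heat shock proteins and chaperones, which does not hold AT1G71000, had 5 measured genes with 0 calls and a median of -0.31, and 1 had an unadjusted p under 0.05.

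Further genes higher in CesA4 showed 3- to 4-fold ratios. AT3G15450, a protein with YGL and LRDR motifs related to aluminium-induced proteins, had signals of 165, 121 and 192 against 46.7 and 48.4, and its log2 difference was 1.65 ± 0.25 (adjusted p = 0.00039). AT5G19120, of the aspartyl protease family, had 129, 162 and 158 against 42.3 and 49.1, and its log2 difference was 1.64 ± 0.20 (adjusted p = 7.38e-06). AT5G65660 had 504, 597 and 384 against 162 and 153, with a log2 difference of 1.61 ± 0.19 (adjusted p = 5.65e-06). In these 3 genes the lowest CesA4 array was more than 2-fold above the highest CesA6 array. AT2G24550 was at 258, 159 and 198 in CesA4 and at 83.2 and 49.2 in CesA6, a log2 difference of 1.60 ± 0.22 (adjusted p = 5.03e-05). AT2G25200 had 40.3, 55.6 and 61.1 against 19 and 9.71, and its log2 difference of 1.69 ± 0.29 lost its call without homozygous CesA6 replicate 2 (adjusted p = 0.0899). AT5G50450 had 89.1, 68.6 and 77.2 against 18.1 and 29.7, and its difference of 1.61 ± 0.29 lost its call without homozygous CesA6 replicate 1 (adjusted p = 0.0924). AT1G26800 was a less secure case, since its CesA6 arrays stood at 8.32 and 22.7. Its CesA4 arrays were at 60.9, 53.3 and 59.3, and its difference of 1.82 ± 0.41 lost its call without homozygous CesA6 replicate 1 (adjusted p = 0.377) or without any 1 homozygous CesA4 array (adjusted p from 0.0777 to 0.11).

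**Figure D1:**
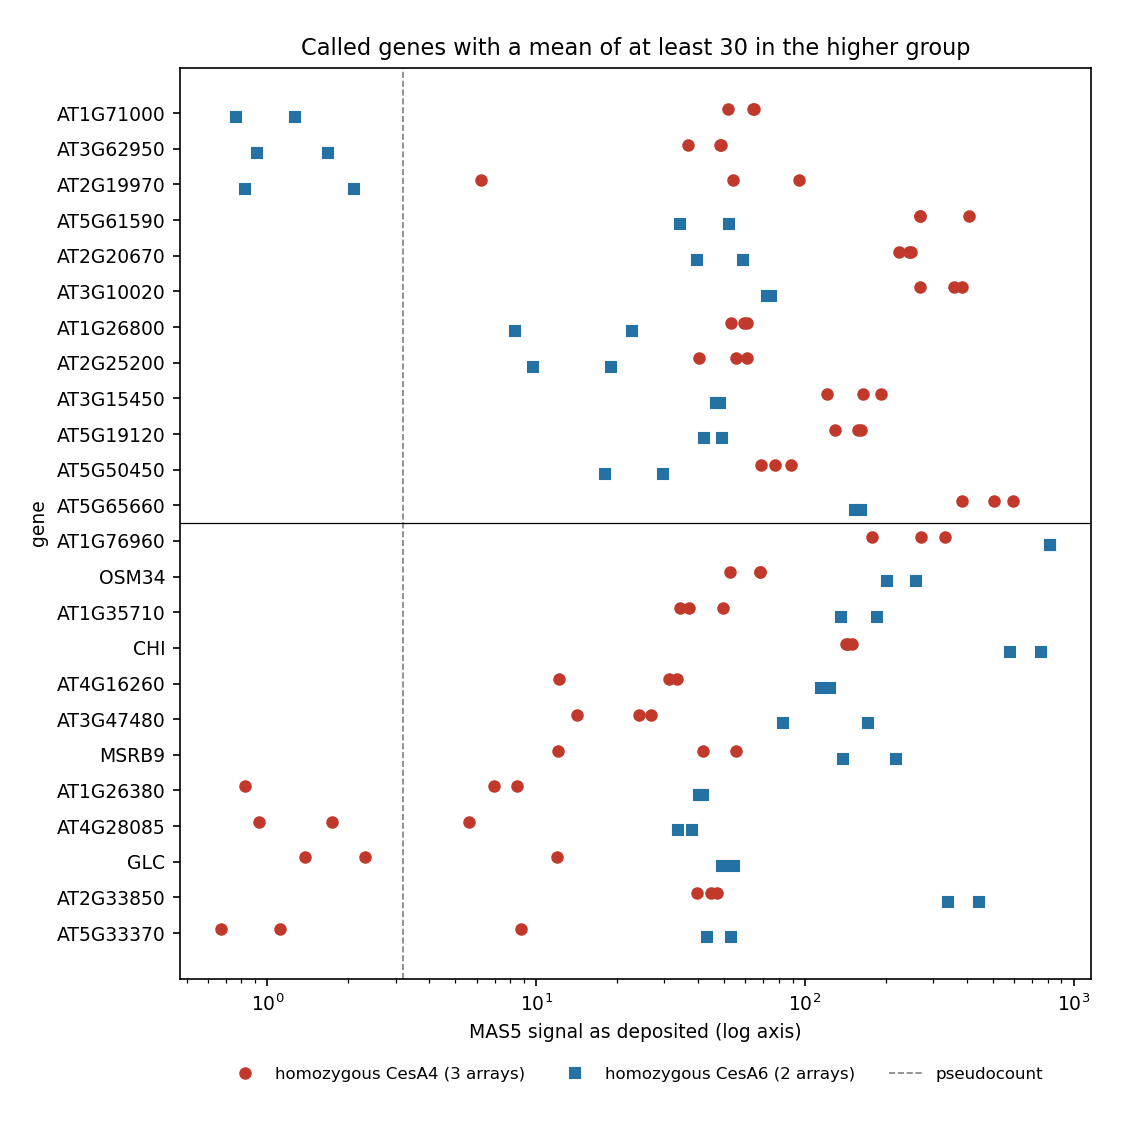
Signals of the 12 named genes per direction with the largest called differences among those with a mean signal of at least 30 in the higher group, as deposited MAS5 signal on a log axis. Red circles are the 3 homozygous CesA4 arrays, blue squares the 2 homozygous CesA6 arrays, and the dashed line is the pseudocount of 3.2; no gene has overlapping groups, and AT1G71000, AT3G62950 and AT2G19970 lie below the line in both CesA6 arrays.

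Among the genes lower in CesA4, AT2G33850 changed most in relation to its error. Its signals were 39.7, 44.9 and 47 in CesA4 and 341 and 444 in CesA6, a ratio of means of 8.96 in favour of CesA6. The CesA4 arrays were within a few units of each other, and the log2 difference was -3.06 ± 0.23 (adjusted p = 7.49e-10), from -3.25 to -2.88 over all alternatives. CHI (AT2G43570), a chitinase, was at 143, 144 and 150 in CesA4 and at 757 and 582 in CesA6. No array of either group came near the other group, and the log2 difference was -2.17 ± 0.27 (adjusted p = 7.6e-05). A second chitinase, AT4G01700, was at 68.2, 77.4 and 55.5 against 159 and 139, a difference of -1.12 ± 0.26 (adjusted p = 0.0239) that lost its call without any of 4 homozygous arrays, with adjusted p-values from 0.0743 to 0.251. These were 2 of 15 measured chitinase genes, a family listed after the values were seen, with 11 of 15 below 0 and a median of -0.47. Over all 13350 genes with a chosen probe set, 0.3% were called lower and the median was 0.02, and 9 of the 15 chitinases were below a signal of 30 in both groups.

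AT1G35710, a receptor kinase with leucine-rich repeats, was lower in CesA4 and had signals of 49.5, 37.1 and 34.3 in CesA4 and of 185 and 137 in CesA6. Its log2 difference was -1.91 ± 0.23 (adjusted p = 5.65e-06). AT3G47480, a calcium-binding EF-hand protein, had 24.1, 14.2 and 26.7 against 172 and 82.6, and its difference was -2.34 ± 0.30 (adjusted p = 1.29e-05). The CesA6 arrays of AT3G47480 differed from each other by more than a factor of 2, yet both stood above every CesA4 array. AT5G18470, a lectin of the curculin type, was at 20, 13.9 and 11.7 against 57.7 and 43.8. Its difference of -1.57 ± 0.36 (adjusted p = 0.0229) lost its call without any of 4 homozygous arrays, with adjusted p-values from 0.0552 to 0.272. AT5G03350, a lectin of the legume type, was chosen after its values were seen, at 291, 334 and 373 against 922 and 557. Its difference was -1.11 ± 0.19 (adjusted p = 0.00096), or -0.75 with an adjusted p of 0.172 without homozygous CesA6 replicate 1. RING1, a ubiquitin ligase known from programmed cell death, was also named after its values were seen and had 250, 131 and 219 against 586 and 524, a difference of -1.50 ± 0.23 (adjusted p = 0.00044). In the lists nearest to these families, 0 of 14 genes of calmodulin-like proteins and calcium signalling, 0 of 5 jacalin and mannose-binding lectins and 0 of 4 receptor-like kinases of wall sensing were called. Their medians were -0.05, 0.19 and 0.44, and 3, 0 and 1 genes had an unadjusted p under 0.05. The list of wall-sensing kinases did not hold AT1G35710. It also lacked AT4G08850, another receptor kinase with leucine-rich repeats, which was counted in the primary wall list and had -0.78 (adjusted p = 0.16). The 0 calls thus cover only the 4 listed kinases, which were all above 0, while AT1G35710 and AT4G08850 were both below 0.

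OSM34, an osmotin-like protein, fell from 202 and 259 in CesA6 to 68.2, 52.7 and 68.4 in CesA4. The log2 difference was -1.82 ± 0.30 (adjusted p = 0.000653), and the call was lost without homozygous CesA6 replicate 2 (adjusted p = 0.0732). AT1G76960 had signals of 334, 178 and 271 in CesA4 and of 815 and 816 in CesA6, a difference of -1.68 ± 0.21 (adjusted p = 8.96e-06). For AT4G16260, a beta-glucanase of glycosyl hydrolase family 17, the signals were 33.5, 12.1 and 31.2 against 115 and 124. Its difference of -2.19 ± 0.46 had an adjusted p of only 0.0475 and lost its call without any of 6 arrays, with values from 0.0569 to 0.358. MSRB9, a methionine sulphoxide reductase, was at 41.9, 55.3 and 12.1 against 218 and 139. Its difference of -2.37 ± 0.47 (adjusted p = 0.0385) also lost its call without any of 6 arrays, with adjusted p-values from 0.0625 to 0.211.

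A further 4 genes were near the floor in CesA4. AT5G33370, a lipase of the GDSL type and 1 of the 3 measured flower markers, was at 0.674, 1.12 and 8.77 in CesA4 and at 43.1 and 52.9 in CesA6. Its log2 difference was -3.12 ± 0.68 (adjusted p = 0.0154). Since 2 of its CesA4 arrays lay below the pseudocount, it ran from -4.67 with no pseudocount, where the call was lost (adjusted p = 0.0625), to -2.15 with a pseudocount of 10. AT5G33370 made up most of the summed flower markers of the homozygous CesA6 arrays given above, and the part of these markers in other results was not tested. GLC (AT1G65450), an acyltransferase, was at 2.3, 1.38 and 11.9 against 49.3 and 54.3, a difference of -2.92 ± 0.70 (adjusted p = 0.0319). AT4G28085 was at 0.927, 1.74 and 5.61 against 38.1 and 33.8, a difference of -2.79 ± 0.56 (adjusted p = 0.00552). AT1G26380, an oxidase of the berberine bridge enzyme family, was at 8.48, 6.98 and 0.823 against 40.5 and 41.8, a difference of -2.50 ± 0.61 (adjusted p = 0.0379). In all 4 genes the groups did not overlap, and all 4 calls were lost without either homozygous CesA6 array, with adjusted p-values from 0.0915 to 0.349. AT5G33370 also lost its call without homozygous CesA4 replicate 1 (adjusted p = 0.0612), and AT1G26380 without homozygous CesA4 replicate 3 (adjusted p = 0.136). GLC lost it without homozygous CesA4 replicate 1 (adjusted p = 0.128) or replicate 2 (adjusted p = 0.114), and both AT1G26380 and GLC lost it without either heterozygous CesA6 array (adjusted p from 0.0578 to 0.0663).

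Genes of cell wall synthesis were searched for differences by list. None of the 3 measured genes of secondary wall cellulose and xylan was called, against 0.629% of all genes, and all 3 had a positive difference with a median of 0.58. IRX15-L, needed for normal xylan, had a log2 difference of 0.32 with a 95% interval of -0.12 to 0.76. GUT2, a xylan synthase, had 0.58 (-0.14 to 1.29), with signals of 74.1, 54.2 and 33 against 24.1 and 45.4, so the groups overlapped. IRX15 had 1.40 (-0.19 to 2.98) at signals of 3.27 to 26.8 and of 1.34 and 2.35, so for both of these last genes a difference above 2-fold lies within the interval. By limma's unadjusted p, 0 of these 3 were under 0.05. The 6 genes of the primary wall list had 0 calls as well, and 3 had an unadjusted p under 0.05, against 8.1% of all 13350 genes. The differences of this list ran from -0.78 to 0.83, with 4 of 6 above 0. The lowest was that of AT4G08850, which had -0.78 (-1.27 to -0.29, adjusted p = 0.16). AT4G08850 is a receptor kinase with leucine-rich repeats, not a gene of cellulose synthesis, and is among the 3 with an unadjusted p under 0.05. COB, a membrane-anchored protein of oriented cellulose deposition, had a difference of 0.12 (-0.19 to 0.43), and THE1, a receptor kinase that senses wall defects, had 0.51 (0.00 to 1.01). Both measured lignin genes were uncalled, with 0 unadjusted p-values under 0.05: HCT, an acyltransferase of monolignol synthesis, had -0.01 (-0.33 to 0.32), and CCR2, a cinnamoyl-CoA reductase, had -0.32 (-0.96 to 0.31).

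Of the wall-modifying genes in the lists, 1 was called. ATPMEPCRB (AT4G02330), a pectin methylesterase, was at 29, 26 and 32.4 in CesA4 and at 55.4 and 58.6 in CesA6. Both CesA6 arrays lay above all CesA4 arrays, and the log2 difference was -0.90 ± 0.21 (adjusted p = 0.0296). Its call was lost without any of 4 homozygous arrays or either heterozygous CesA6 array, with adjusted p-values from 0.051 to 0.267. The other 5 measured genes of pectin modification were not called, and the median of the list was -0.54. None of 28 xyloglucan endotransglucosylase and expansin genes was called, with 11 above and 17 below 0 and a median of -0.10, and 2 had an unadjusted p under 0.05. Its named genes had wide intervals: XTH16 had 0.77 (0.20 to 1.34), EXPB1 -0.58 (-1.15 to -0.01) and EXLA1 0.42 (-0.12 to 0.95). The sign of EXLA1 turned without homozygous CesA6 replicate 2. The 22 genes of wall acetylation and the trichome birefringence-like family had 0 calls and a median of -0.06, the 8 cellulose synthase-like genes 0 calls and 0.02, and the 9 tubulin and actin genes 0 calls and 0.28. In these 3 lists 5, 2 and 2 genes had an unadjusted p under 0.05. AT5G62360, of the pectin methylesterase inhibitor family but in no list, was higher in CesA4, at 54.8, 45.5 and 51.5 against 13.6 and 16.2. Its log2 difference was 1.57 ± 0.30 (adjusted p = 0.00354), and its call was lost without homozygous CesA6 replicate 1 (adjusted p = 0.0609).

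Among stress and hormone lists, single genes were called in homozygous plants rather than many members. LTI30, a dehydrin induced by cold and abscisic acid, was at 3915, 3215 and 4241 in CesA4 and at 1720 and 2108 in CesA6, a log2 difference of 0.98 ± 0.16 (adjusted p = 0.000671). The groups did not overlap, and the call was lost without homozygous CesA6 replicate 1 (difference 0.84, adjusted p = 0.0756). In homozygous plants it was the only call among 9 measured members of the list for drought, cold and abscisic acid, whose median was 0.28 with 7 of 9 above 0. COR15B, a chloroplast cold-response protein, had 0.59 (0.23 to 0.96, adjusted p = 0.15), COR47, another dehydrin, 0.23 (-0.05 to 0.51), and COR15A 0.08 (-0.24 to 0.40). LEA4-5, a late embryogenesis abundant protein, had -0.42 (-0.85 to 0.00). In the jasmonate list ORA47 was the only called gene of 10 and the median was -0.14. The thionin THI2.1 had 0.75 (0.20 to 1.30, adjusted p = 0.31), and the transcription factor MYC4 -0.43 (-1.09 to 0.24). None of the 11 senescence genes was called, and 3 had an unadjusted p under 0.05, against 8.1% of all genes. WRKY53, a senescence regulator, had signals of 25, 14.1 and 15.7 against 48.9 and 35.7 and a difference of -1.10 ± 0.28. Its adjusted p of 0.0527 fell under the threshold in 6 of the 19 alternatives.

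Other lists held at most 1 called gene. The 10 nuclear photosynthesis genes had 0 calls and narrow limits, with differences from -0.19 to 0.08, and LHCB4.1, an antenna protein of photosystem II, had -0.19 (-0.44 to 0.06). Of 69 chloroplast-encoded genes 0 were called and the median was -0.02. None of the 8 anthocyanin and flavonoid genes was called, and DFR, the reductase that leads into anthocyanins, had -0.18 (-0.55 to 0.18). The 50 UDP-glycosyltransferases had 0 calls and a median of 0.03, with differences from -2.36 to 1.38. The 23 cytochrome P450 genes had 0 calls and a median of -0.34, with 17 of 23 below 0 and differences from -1.93 to 1.77. An unadjusted p under 0.05 was found for 0 of the photosynthesis and of the anthocyanin genes, for 3 chloroplast-encoded genes, 5 UDP-glycosyltransferases and 3 cytochrome P450 genes. Of the 14 bZIP factors 1 was lower in CesA4: BZIP60, a regulator of the endoplasmic reticulum stress response, was at 165, 186 and 212 against 286 and 340. Its difference of -0.73 ± 0.18 had an adjusted p of 0.0496, and it lost its call without any of 8 arrays, with adjusted p-values from 0.0584 to 0.613. In 52 of the 60 lists with measured members no gene was called.

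**Figure D2:**
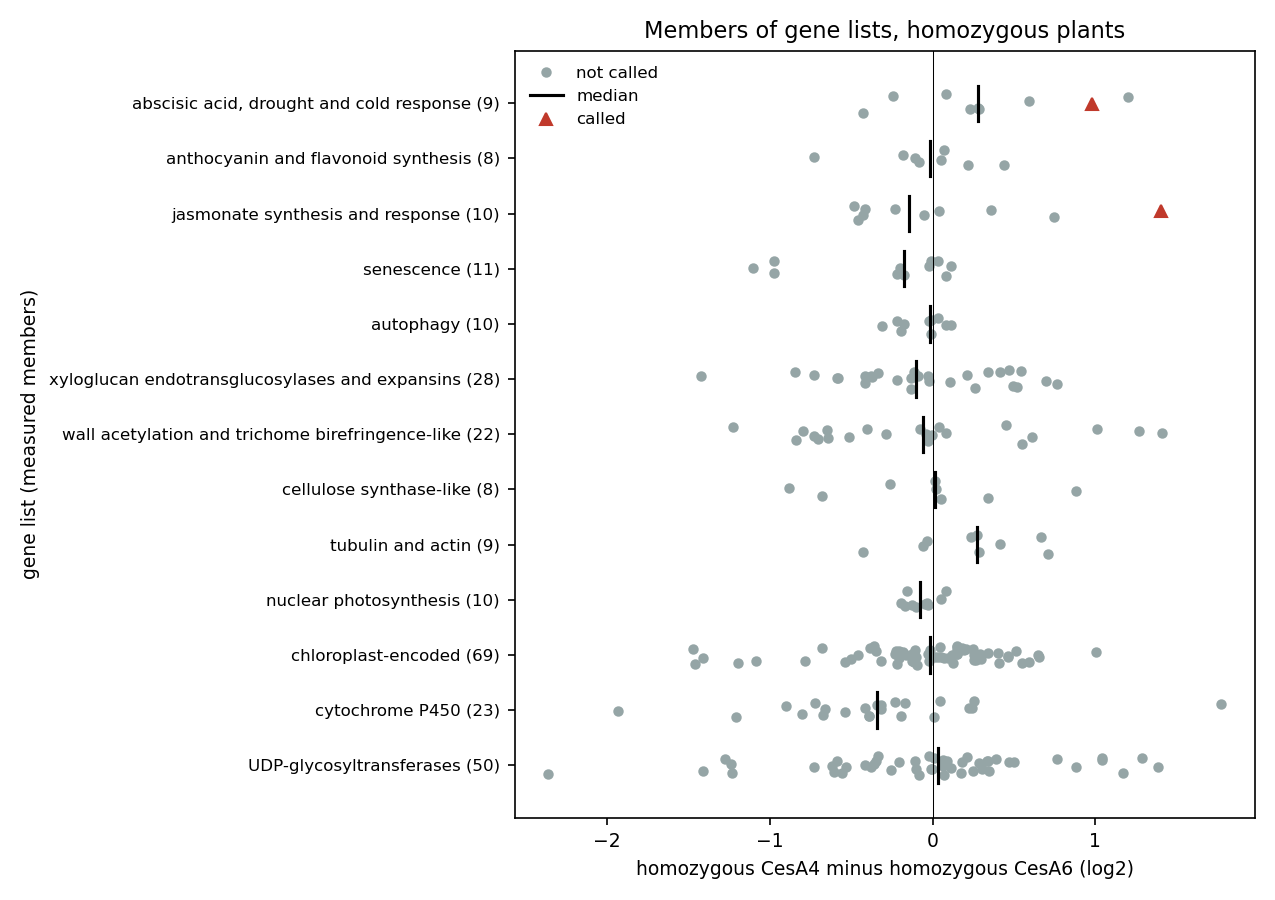
Log2 differences, homozygous CesA4 minus homozygous CesA6, of the measured genes in 13 lists, with the number of genes beside each name. Grey points were not called, red triangles were, and black bars are list medians; LTI30 at 0.98 and ORA47 at 1.40 are the only called genes shown.

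The same lines were then compared in heterozygous plants, whose group means share no array with the homozygous contrast. Both contrasts use the same estimate of the spread of each probe set, so their calls are not independent. In heterozygous plants 1109 probe sets were called (4.88%), 479 higher and 630 lower in CesA4. Of the 204 homozygous calls 102 were also called in heterozygous plants with the same sign, which is 50.0% of the homozygous and 9.20% of the heterozygous calls, and 0 with the opposite sign. Whether called or not, 174 of the 204 had the same sign. Across all probe sets the correlation of the log2 differences was weak (Pearson's r = 0.134, Spearman's rho = 0.118), as a description over 22746 probe sets that share arrays and are not independent. Of the genes with 1 probe set annotation, 20 of the 40 lower in homozygous CesA4 and 15 of the 44 higher were called in the same direction in heterozygous plants. Over all 13350 genes 3.76% were called in heterozygous plants. Of the 9 measured genes of the drought, cold and abscisic acid list, 4 were called higher in heterozygous CesA4, and the median of the list was 0.75. The homozygous minus the heterozygous difference of this list had a median of -0.54 and 0 calls. With 1 common expected variance the heterozygous count of called probe sets was 4, with 3101 unadjusted p-values under 0.05. Without heterozygous CesA6 replicate 1 it was 243 and without replicate 2 it was 520, and it was 728 and 737 without heterozygous CesA4 replicates 1 and 3.

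**Figure D3:**
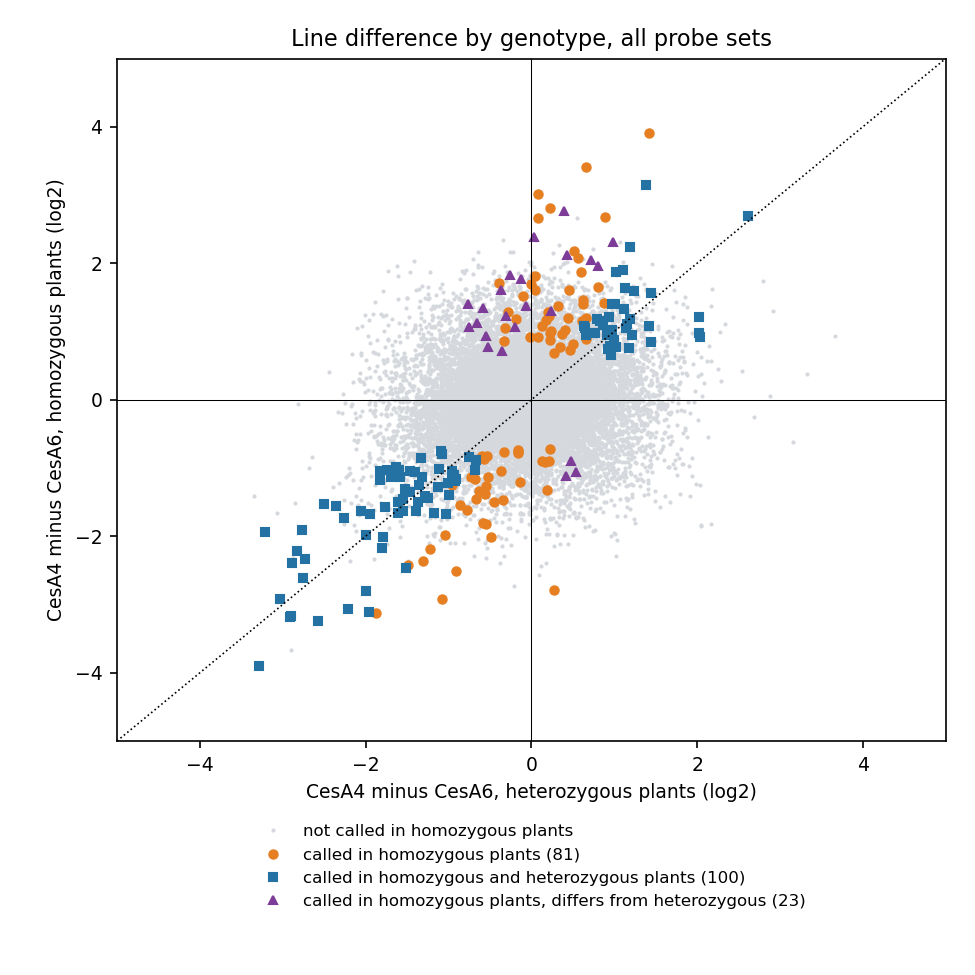
Log2 difference CesA4 minus CesA6 in heterozygous plants (horizontal) and homozygous plants (vertical) for all 22746 probe sets; the dotted line marks equal differences. Of the homozygous calls, 81 (orange circles) were called in homozygous plants with no called difference between genotypes, 100 (blue squares) also in heterozygous plants, and 23 (purple triangles) had a difference that itself differed between genotypes.

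A number of genes were called in both genotypes with the same sign. AT2G33850 was at 55.2, 45.9 and 39.1 in heterozygous CesA4 and at 191 and 270 in heterozygous CesA6, a difference of -2.22 (adjusted p = 4e-07) beside -3.06 in homozygous plants. CHI had a heterozygous difference of -1.80 (adjusted p = 0.00028), although its heterozygous CesA6 arrays were apart at 451 and 176. AT1G35710 had -2.76 (adjusted p = 1.3e-08), AT3G47480 -2.73 (adjusted p = 9.3e-07) and AT1G76960 -1.95 (adjusted p = 7.2e-07). AT2G20670 was 1.18 higher in heterozygous CesA4 (adjusted p = 0.0008), at 383, 510 and 644 against 185 and 258, and AT5G19120 was 1.14 higher (adjusted p = 0.00064). AT5G62360 had 1.44 beside 1.57 in homozygous plants. AT1G14200, a RING zinc finger protein, had 1.12 (adjusted p = 0.0058) beside 1.33 ± 0.25, and lost its homozygous call without homozygous CesA6 replicate 1 (adjusted p = 0.137). AT3G59350, of a protein kinase family, had 2.02 beside 1.21 ± 0.29, the latter lost without any of 5 arrays (adjusted p from 0.0594 to 0.441). AT3G19680 was at 108, 101 and 96 against 62.6 and 33.7 in homozygous plants, a difference of 1.09 ± 0.21, and at 1062, 918 and 1115 against 337 and 432 in heterozygous plants, a difference of 1.42. The homozygous call of AT3G19680 was lost without homozygous CesA6 replicate 2 (adjusted p = 0.437). The difference between the genotypes was not called for any of these genes, which does not show that it was absent: for AT2G20670 it was 1.05 ± 0.30 (adjusted p = 0.15).

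For 87 probe sets (0.382%) the line difference itself differed between homozygous and heterozygous plants, 49 upward (0.215%) and 38 downward (0.167%). An unadjusted p under 0.05 was found for 2259 (9.93%). Of the 87, 23 were called in homozygous plants, 7 with the same sign but larger there and 16 with opposite signs, and 60 were called in heterozygous plants only. AT5G61590 was high in both heterozygous groups, at 893, 1038 and 1041 in CesA4 and at 715 and 788 in CesA6. Its heterozygous difference was 0.40 (adjusted p = 0.32), and the difference between the contrasts was 2.38 (adjusted p = 3.2e-05). Both homozygous groups lay below both heterozygous groups, and homozygous CesA6 was the lowest of the 4. For AT3G10020 homozygous CesA6 alone stood apart: heterozygous signals were 294, 368 and 477 in CesA4 and 294 and 258 in CesA6, and the contrasts differed by 1.70 (adjusted p = 0.0032). AT2G24550 and AT1G23390 had heterozygous differences of -0.37 and -0.31, with contrasts that differed by 1.97 (adjusted p = 0.0019) and 1.53 (adjusted p = 0.017). ORA47 was arranged otherwise, at 48, 34.2 and 45.1 in heterozygous CesA4 and at 77.4 and 69.8 in heterozygous CesA6. Homozygous CesA4 was the highest of its 4 groups, and the contrasts differed by 2.17 (adjusted p = 0.0055). AT4G14270 was at 449, 526 and 575 against 249 and 238 in homozygous plants, a difference of 1.07 ± 0.20 (0.99 to 1.16 over all alternatives), and had -0.19 in heterozygous plants. Its contrasts differed by 1.26 (adjusted p = 0.033), and its homozygous call was lost without homozygous CesA6 replicate 2 (adjusted p = 0.0744). ATPMEPCRB had 251, 259 and 308 against 197 and 190 in heterozygous plants, all far above its homozygous signals, and its contrasts differed by -1.38 (adjusted p = 0.03).

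Of the 44 genes higher in homozygous CesA4, 38 had a lower mean in homozygous than in heterozygous CesA6 plants, and 22 had a lower mean in homozygous than in heterozygous CesA4 plants. Of the 40 genes lower in homozygous CesA4 these numbers were 21 and 32. The contrasts of homozygous with heterozygous plants share arrays with the comparison of the lines, so these counts describe the arrangement of the 4 groups and are no further test. Choosing genes by their homozygous means also favours a low homozygous CesA6 mean among the 44 and a low homozygous CesA4 mean among the 40. The count of 87 was 0 with 1 common expected variance, where 1819 unadjusted p-values were under 0.05. It was 21 without homozygous CesA6 replicate 2, 46 without homozygous CesA4 replicate 1, 42 and 35 without heterozygous CesA4 replicates 1 and 3, and 19 and 20 without heterozygous CesA6 replicates 1 and 2. The wall gene EXLA1, an expansin-like protein, stood among the 60 called in heterozygous plants: it was at 37.3 to 69.4 in homozygous CesA4, and in heterozygous CesA4 its mean was 856 against 144 in heterozygous CesA6. Its contrasts differed by -2.13 (adjusted p = 0.0068).

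**Figure D4:**
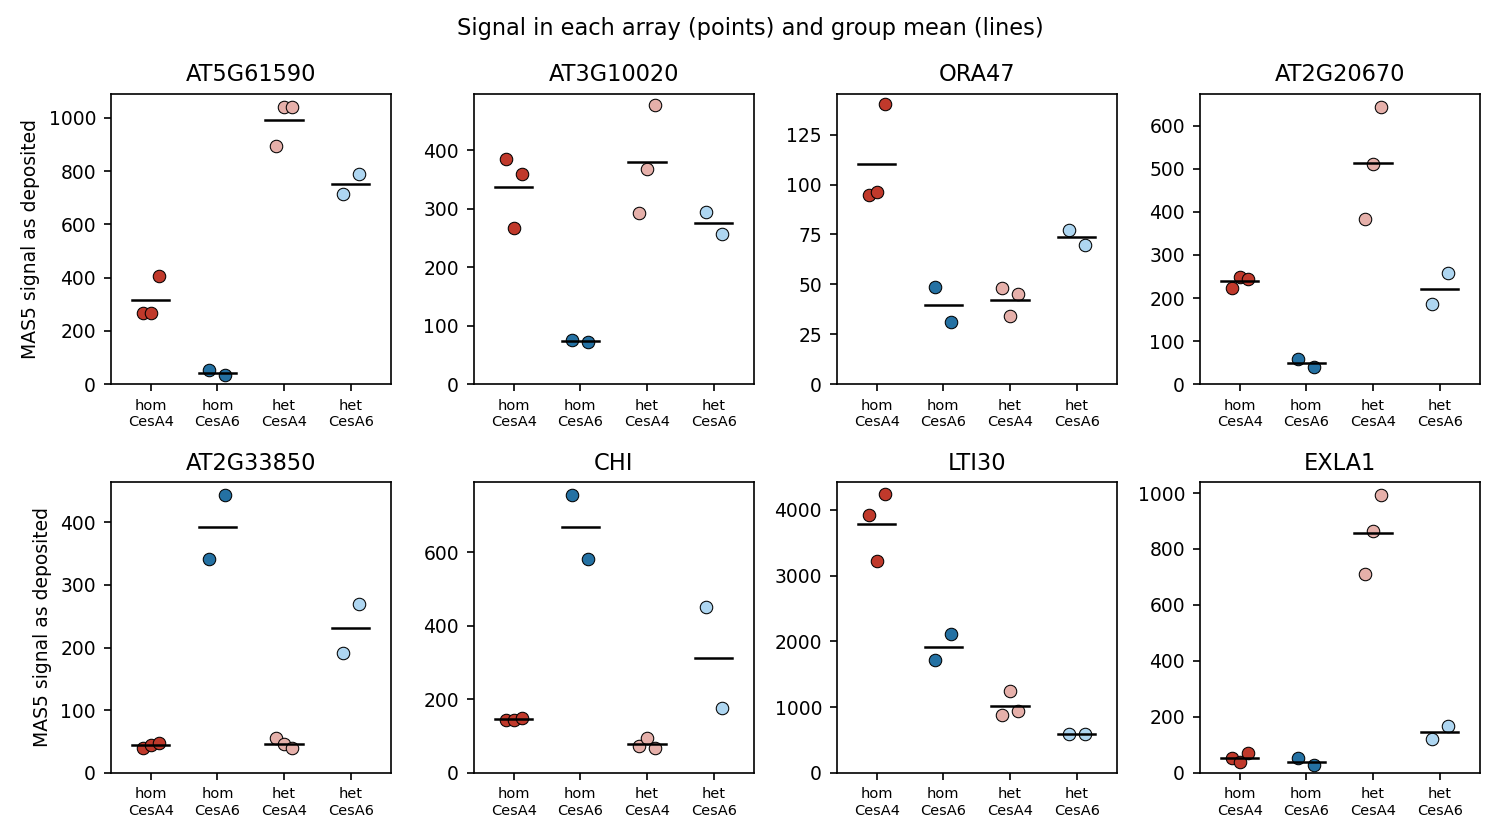
MAS5 signal in each array for 8 genes in homozygous and heterozygous plants of both lines, with horizontal lines at the group means; the vertical axes start at 0 and differ between panels. In AT3G10020 homozygous CesA6 alone is low. In AT5G61590 it is the lowest of the 4 groups, and both homozygous groups lie below the heterozygous ones. For AT2G33850 and CHI all CesA6 arrays lie above all CesA4 arrays. For CHI 1 heterozygous CesA6 array, at 176, is close to the highest homozygous CesA4 array, at 150. EXLA1 separates the lines in heterozygous plants.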

How the data were processed

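RNA from 10 rosette samples had been hybridised to Affymetrix ATH1 arrays. The authors deposited linear intensities made with MAS5 in GCOS, per the submitters' processing notes. Their 2% trimmed mean was 100.01 on every array. No versions are given in the sources used here.

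Values were analysed as log2(signal + 3.2), so that changes of dim probe sets are understated. limma 3.58.1 (R 4.3.3) fitted 4 group means over all 10 arrays, with eBayes using trend and robust (6 residual and a median of 22.5 prior degrees of freedom). All groups thus shared the spread estimate, while the contrast used the homozygous means. Errors are standard errors, and intervals are 95% intervals without adjustment. Of 22810 probe sets 64 controls were left out. The annotation gave 13513 probe sets 1 gene, 503 several and left 8730 unnamed, and 13436 were matched to TAIR10.1 by gene ID. The brightest probe set stood for a gene.

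The comparison and the gene lists were chosen with earlier results of these data known. Named genes with 1 probe set gene were the 12 largest non-overlapping calls per direction with a mean signal of at least 30 in the higher group, up to 4 called or 2 uncalled members per list, and 6 per direction that were called with the interaction or in both genotypes. Others were chosen after their values were seen. The organelle lists were changed and 7 lists added once the annotation was seen. The fit was also run on simulated data with independent normal noise, and no result here rests on that run. On the deposited values, 19 alternatives were run.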

Additional observations from a re-analysis of the deposited data

Results flagged for a closer look

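For 87 probe sets the difference between the lines itself differed between homozygous and heterozygous plants, by limma's test of the interaction. Values here are the homozygous difference minus the heterozygous one on the log2 scale, and each has an adjusted p under 0.05. It was 2.38 for AT5G61590, 2.17 for ORA47, 1.97 for AT2G24550, 1.70 for AT3G10020, 1.53 for AT1G23390 and 1.26 for AT4G14270, which were all higher in homozygous CesA4. It was 1.49 for AT1G74940, a protein of the FLZ zinc finger family, and 1.29 for AT5G25280, which were also higher there. Beside it, AT1G74940 lost its homozygous call without homozygous CesA6 replicate 2 (adjusted p = 0.295), and AT5G25280 without any of 4 homozygous arrays (adjusted p from 0.0643 to 0.329). Of 11 measured FLZ genes, listed after the values were seen, 1 was called and 8 were below 0, against 0.33% of all genes called higher.

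For the following the homozygous difference itself was not called. The value was 1.92 for psbK, a chloroplast gene of photosystem II, 1.57 for JAL23, a jacalin-type lectin, 1.56 for IRX15-L, a gene of xylan synthesis, and 1.27 for STZ, a zinc finger regulator of stress responses. It was -1.09 for LCR69, a defensin-like peptide, and -2.13 for EXLA1, an expansin-like protein. For ATPMEPCRB, a pectin methylesterase that was called lower in homozygous CesA4, it was -1.38. With 1 common expected variance for all probe sets none of the 87 was called, and 1819 unadjusted p-values were under 0.05.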

How the results depend on the processing

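The 19 alternatives covered filters, pseudocounts, scaling, the variance prior, the arrays fitted and every array left out. Of the 84 called genes with 1 gene name 75 had a value in all 19, and 9 were dropped as dim when the lower 50% of probe sets was left out. None of the 84 changed direction where it was tested. AT2G33850 and AT5G61590 kept their call in all 19, AT1G71000 and AT3G62950 in the 18 that tested them, and 16 further genes lost it only with eBayes without trend and robust. That setting gave 8 calls in homozygous plants, 4 in heterozygous plants and 0 for the interaction. Leaving out 1 array gave 114 to 199 calls in homozygous plants, 243 to 1326 in heterozygous plants and 19 to 125 for the interaction. The homozygous arrays alone gave 153 calls. With the replicate number as a block the homozygous count was 249, of which 179 were shared with the 204. Deviations of homozygous CesA4 and CesA6 arrays with the same number correlated at -0.01 and 0.03. With 2 homozygous CesA6 arrays the deviations of these mirror each other, so such values cannot decide whether the numbers pair the samples. With arrays centred on their medians the heterozygous calls were 750 higher and 396 lower, and the interaction calls 22 higher and 53 lower. Among uncalled genes the log2 difference turned sign for RCA with quantile normalization (0.10) and for HCT with the replicate block (0.048). With 1 array left out it also turned for some uncalled genes, with ranges of -0.12 to 0.00942 for RCA, -0.050 to 0.030 for HCT, -0.15 to 0.31 for COR15A, -0.057 to 0.89 for EXLA1, -0.95 to 0.12 for EXO and -0.45 to 0.40 for psbK. With 2 homozygous CesA6 arrays, small differences and dim probe sets were beyond what these data could resolve.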
